A study of Mus musculus with 40 samples.

Results

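The core loop of the circadian clock was followed through 10 genes in subcutaneous white fat of the mouse (labelled sWAT). They are the activators Arntl (also called Bmal1), Clock and Npas2, the repressors Per1, Per2, Per3, Cry1 and Cry2, and the nuclear receptors Nr1d1 and Nr1d2 (REV-ERB alpha and beta). The members were taken by symbol from a deposited count table that lists 34843 gene symbols, and all 10 were found in it. Of these, 9 passed the filter on low counts and were tested among 15807 genes, while Npas2 fell below it and is described from its counts.

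The series holds 40 bulk RNA libraries in 5 groups of 8. The groups were mice on a high-fat diet (HFD) given semaglutide, mice on HFD given tirzepatide, mice moved from HFD to a normal diet (ND) and here called the diet switch, mice kept on HFD, and mice kept on ND. Semaglutide activates the receptor of the gut hormone GLP-1, and tirzepatide activates that receptor and the receptor of the gut hormone GIP. The design asks which expression differences of obesity remain and which are reversed under these treatments. The labels give no strain, sex, age, dose, treatment length or hour of collection, and do not say whether the diet-switch mice had received a drug first, although the series title places a diet change after incretin treatment. Because no hour of collection is given, a difference between groups and a difference in the hour of collection cannot be told apart in any comparison below. Libraries of a group are labelled as separate samples, not as separate animals, and p-values then describe only how far these samples spread, which may be partly technical.

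The mammalian clock is a feedback loop of transcription. ARNTL pairs with CLOCK or NPAS2, binds E-box elements and activates the Per, Cry and Nr1d genes. PER and CRY proteins then inhibit that pair, and NR1D1 and NR1D2 repress Arntl through ROR elements, so that Arntl and the Nr1d and Per genes peak at opposite times of the day. In adipose tissue the loop is known to time lipid storage and release, and feeding time is a known signal that sets it.

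Letter matches to a few such elements can be seen in RefSeq start-site windows. Shown are 4 stretches, each with a match to a site class of factors of the loop or its outputs. They are from RefSeq on GRCm38.p6, 5′ to 3′ on the strand of the gene, with the element in capitals. The first holds the ROR element core of Arntl, the site class bound by NR1D1 and NR1D2. The second carries the pair of D-box elements of Per3, the site class bound by the clock outputs TEF, HLF, DBP and NFIL3. The other two carry the E-boxes of Per1 and Cry1, the site class of ARNTL and CLOCK, and Cry1 also has an E-prime box that reads CACGTT on the other strand.
Arntl, chr7:113207530-113207558, + strand: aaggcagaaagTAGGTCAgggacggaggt
Per3, chr4:151044800-151044886, − strand: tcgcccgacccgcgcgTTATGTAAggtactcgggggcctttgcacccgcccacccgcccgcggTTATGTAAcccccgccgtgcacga
Per1, chr11:69098763-69098808, + strand: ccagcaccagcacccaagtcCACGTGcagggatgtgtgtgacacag
Cry1, chr10:85185093-85185149, − strand: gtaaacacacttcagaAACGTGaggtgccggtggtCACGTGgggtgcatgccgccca

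RefSeq windows of 250 bases before to 50 bases after a start were found for 9 of the 10 members, in 13 windows, and not for Per2. Each motif was searched on both strands. The E-box (CACGTG) lay in 2 of the 13 member windows and in 7.15% of all 32851 windows, and the E-prime box (CACGTT), in Cry1, Cry2 and Nr1d1, in 3 of 13 and 4.68%. The D-box (TTATGTAA or TTACGTAA) lay in 1 of 13 member windows, that of Per3, and in 1.06% of all windows. The ROR element core (TAGGTCA or TGGGTCA) lay in 1 of 13 and 6.45%, and the cyclic AMP element (TGACGTCA) in 0 of 13 and 1.79%. These are matches of letters in a short window and show no binding.

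Libraries held 2115471 to 7445548 counts, with a median of 3765319.5. Levels are CPM, counts scaled to a common library size and composition, and a gene is called where the adjusted p of edgeR's quasi-likelihood test is under 0.05 over all genes tested. Adipocyte RNA was present throughout: 5 adipocyte markers averaged between 10.2 and 11.7 log2 CPM in every library. The fat depot named in the label was not tested. Skeletal muscle markers varied between and within groups, with a mean over 7 markers of 1.63 to 5.27 log2 CPM with semaglutide, 2.18 to 8.08 with tirzepatide, 2.31 to 8.37 after the diet switch, 2.17 to 6.24 on HFD and 3.10 to 8.62 on ND. This mean was above 5 in 2 semaglutide, 5 tirzepatide, 3 diet-switch, 1 HFD and 3 ND libraries, and among the markers only Myh1 was at 0 in any library, in 4 of them. The mean over 5 B cell markers was 0.958 to 7.44 with semaglutide, 1.03 to 2.46 with tirzepatide, 1.04 to 2.72 after the switch, 1.74 to 2.87 on HFD and 1.54 to 7.28 on ND, and was above 5 in 3 semaglutide libraries and ND library 5. Ighm was above 0 in every library. The mean over 2 brown adipocyte markers was 1.00 to 4.30 with semaglutide, 1.10 to 4.12 with tirzepatide, 1.89 to 4.79 after the switch, 1.28 to 2.26 on HFD and 1.63 to 6.11 on ND. Over 4 endothelial markers the group means were 5.75 with semaglutide, 6.11 with tirzepatide, 5.75 after the switch, 6.15 on HFD and 5.72 on ND. Mitochondrial genes took on average 10.9% of counts in semaglutide libraries, 11.7% in tirzepatide, 15.2% in diet-switch, 11.8% in HFD and 14.8% in ND libraries, and the ribosomal RNA gene Rn18s 6.42% in semaglutide, 7.09% in tirzepatide, 4.74% in diet-switch, 7.52% in HFD and 7.41% in ND libraries. Calls of members and pairs that end without the libraries high in muscle or B cell markers are named below, and beyond that the part of other cells and of RNA quality in the results was not tested. A call can also end in these settings because fewer libraries remain. In bulk tissue, fewer cells of a type and less RNA per cell cannot be told apart.

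Across the 5 groups some loop genes were called and others were not, and a member without a call is not shown to be unchanged. The test of all 5 groups at once called 4 of the 9 members, namely Arntl (edgeR adjusted p = 1.31e-06), Per2 (4.66e-09), Per3 (2.59e-08) and Nr1d2 (4.66e-09), and 33.5% of all genes. Clock (0.0811), Cry1 (0.0601), Cry2 (0.156), Nr1d1 (0.154) and Per1 (0.387) did not pass it, although Cry1 passed with DESeq2 (0.0367) and Clock with the replicate number as a block (0.0419). Per2, Per3 and Nr1d2 had their means in the order treated mice, HFD, ND, from high to low. Arntl had the opposite order.

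**Figure D1:**
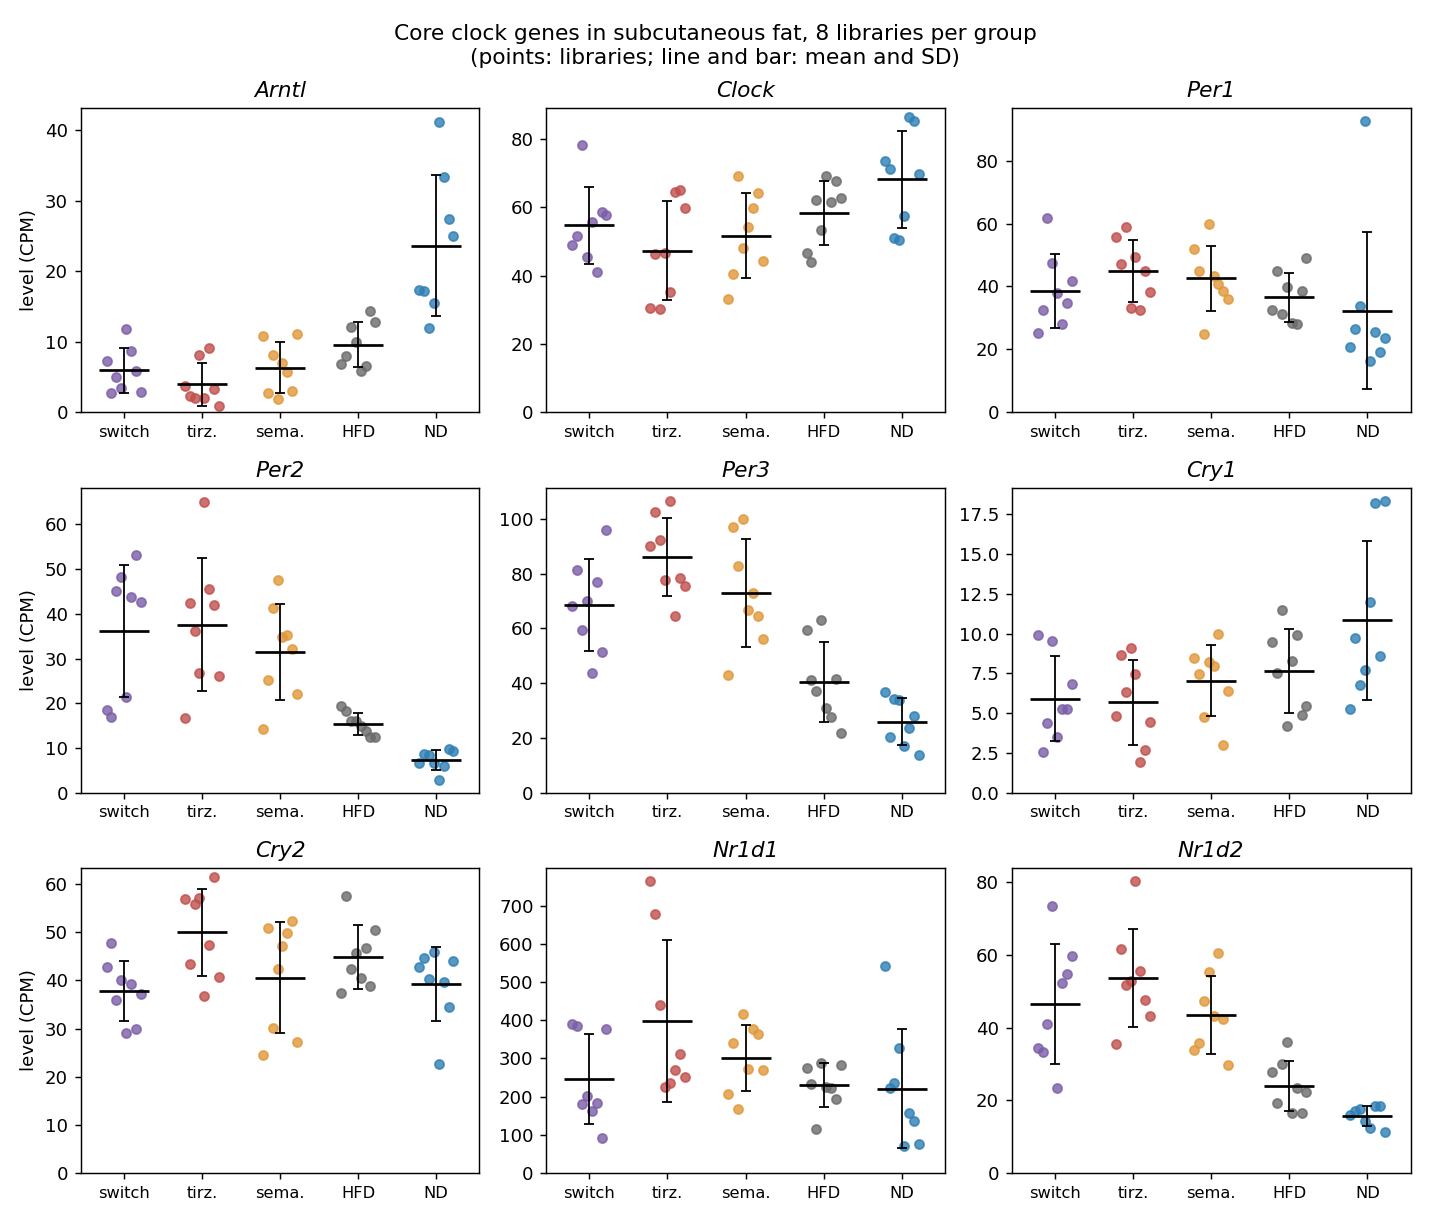
Level in CPM (vertical axes) of the 9 tested core clock genes in each of 8 libraries per group (switch, diet switch; tirz., tirzepatide; sema., semaglutide), with the group mean and SD as line and bar. Arntl is highest on ND, at 12.02 to 41.2 CPM, while Per2, Per3 and Nr1d2 are lowest on ND, and ND library 4 stands alone at 92.6 CPM of Per1.

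The activator Arntl, the partner without which the loop does not run, lies at chr7:113207465-113314126 on the + strand (GENCODE M21, GRCm38, as for each gene below). It ranged from 1.90 to 11.1 CPM (median 6.38) with semaglutide, from 0.968 to 9.16 (median 2.76) with tirzepatide and from 2.76 to 11.8 (median 5.44) after the diet switch. It ranged from 5.92 to 14.4 CPM (median 8.95) on HFD and from 12.02 to 41.2 (median 21.1) on ND. The 4 highest ND libraries, at 24.96 to 41.2 CPM, lay above every library of the other groups, and the range of each treated group lay wholly below that of ND, while the HFD and ND ranges overlapped, with 3 HFD libraries at 12.05, 12.8 and 14.4 CPM. Those 4 ND libraries were the ones numbered 5 to 8, and ND libraries 1 to 4 lay at 12.02 to 17.3 CPM. In log2 CPM, ND 5 had a B cell marker mean of 7.28, and ND 6 and 8 had muscle marker means of 8.61 and 8.62. ND 7 stood at 2.05 in B cell and 3.13 in muscle markers. ND 3, one of the lower libraries in Arntl, stood at 5.44 in muscle markers. What set ND libraries 5 to 8 apart was not tested. On HFD, Arntl fell by 1.30 on the log2 scale against ND (SE 0.35, adjusted p = 0.0183). The HFD call ended without ND library 5, at -1.14 (adjusted p = 0.0537), and without the 14 libraries high in muscle markers, at -1.31 (0.0990).

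All 3 treated groups had less Arntl than ND. Against ND the log2 fold change was -1.89 (SE 0.36, adjusted p = 0.000653) with semaglutide, -2.58 (SE 0.38, 1.01e-05) with tirzepatide and -1.99 (SE 0.36, 0.000476) after the switch. These comparisons and those against HFD share their control libraries, so they are not independent of one another. Against HFD only tirzepatide passed, with a log2 fold change of -1.29 (SE 0.38, adjusted p = 0.0121) and 7 of 8 libraries below the HFD median. Semaglutide, at -0.59 (SE 0.36, adjusted p = 0.369), and the diet switch, at -0.69 (SE 0.36, 0.167), did not pass, and the direct comparison of the drugs, at -0.69 for tirzepatide against semaglutide (95% interval -1.46 to 0.07), did not separate them. Without the muscle-high libraries the tirzepatide fold change against HFD was -1.25 and was not called (adjusted p = 0.184). In the annotation an exon of the antisense gene Gm45355 overlaps an exon of Arntl by 33 bases, and the counting is not stated to use strand, so reads there cannot be told apart.

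Clock, the usual partner of ARNTL (chr5:76209868-76304792, − strand), moved little. It ranged from 33.3 to 69.2 CPM (median 51.2) with semaglutide, from 30.4 to 64.9 (46.4) with tirzepatide, from 40.9 to 78.0 (53.6) after the switch, from 43.9 to 69.0 (61.8) on HFD and from 50.5 to 86.3 (70.4) on ND. All these ranges overlapped. It was called in 1 comparison, tirzepatide against ND, with a log2 fold change of -0.52 (SE 0.17, edgeR adjusted p = 0.0360). That call ended without the muscle-high libraries (-0.38, adjusted p = 0.443), with no filter on low counts (0.0671), with only the compared groups in the fit (0.0577) and on leaving out any 1 of 9 single libraries, tirzepatide 1, 2, 3, 4 or 5 or ND 1, 2, 6 or 7 (adjusted p up to 0.0829).

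Npas2, which can stand in for CLOCK (chr1:39193731-39363236, + strand), had few counts. The libraries held 0, 9, 3, 0, 1, 1, 3 and 0 counts with semaglutide, 1, 0, 0, 2, 0, 0, 0 and 0 with tirzepatide, and 7, 0, 2, 0, 0, 0, 5 and 1 after the switch. They held 1, 3, 2, 2, 2, 1, 1 and 3 counts on HFD and 15, 17, 5, 5, 5, 18, 11 and 7 on ND. Every ND library thus held more counts than any HFD or tirzepatide library, while single semaglutide and diet-switch libraries reached into the ND range. As summed counts over summed library totals, the ratio to ND was 0.207 with semaglutide (exact 95% counting interval 0.115 to 0.352), 0.0332 with tirzepatide (0.00672 to 0.101), 0.181 after the switch (0.0969 to 0.316) and 0.166 on HFD (0.0891 to 0.290). These intervals cover counting error only. When all genes were tested without the filter, Npas2 was called lower than ND with tirzepatide (edgeR adjusted p = 0.000838) and after the switch (0.0434), and not with semaglutide (0.123) or on HFD (0.0639). A separate setting kept the filter and left out the muscle-high libraries, among them 5 tirzepatide, 3 ND and 3 diet-switch libraries. Npas2 passed the filter there, with an edgeR adjusted p against ND of 0.0439 with tirzepatide and 0.0519 after the switch. It entered that test through a filter on its own counts, which were highest on ND, and few tirzepatide libraries remained. No conclusion is drawn from these values. Npas2 and Arntl, both activators, were thus highest on ND by their group means.

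**Figure D2:**
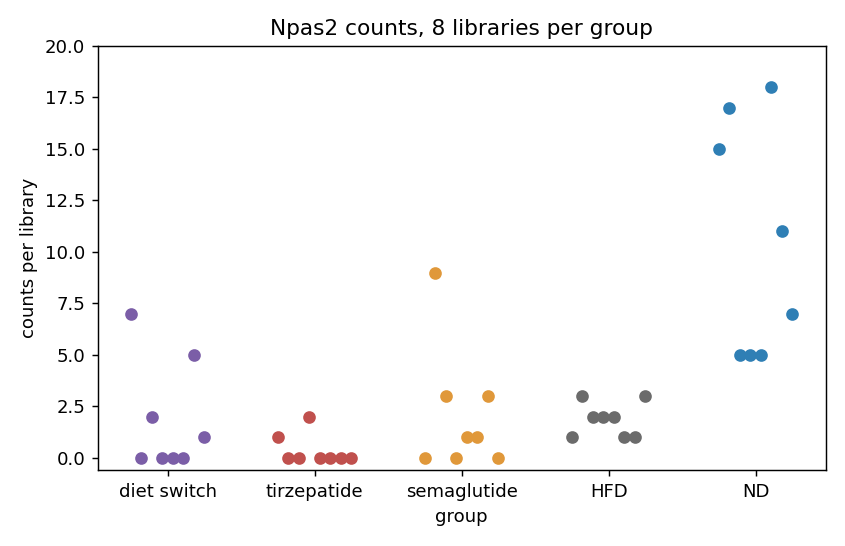
Npas2 counts per library (vertical axis) in the 5 groups of 8 libraries (horizontal axis), each point 1 library. ND libraries hold 5 to 18 counts, and 6 of the 8 tirzepatide libraries hold none.

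Among the repressors, Per2, a PER protein gene known to respond both to the clock and to outside signals (chr1:91415982-91459324, − strand), showed the widest steps. It ranged from 14.3 to 47.5 CPM (median 33.5) with semaglutide, from 16.7 to 65.1 (median 39.1) with tirzepatide and from 16.8 to 53.1 (median 43.2) after the switch. It ranged from 12.5 to 19.3 CPM (median 15.4) on HFD and from 2.86 to 9.82 (median 7.46) on ND. No library outside the ND group lay within the ND range, so HFD and all treated groups stood apart from ND. After the switch 3 libraries lay at 16.8 to 21.4 CPM, within or near the HFD range, and the other 5 at 42.7 to 53.1.

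Per2 rose at each step of that order. It was higher on HFD than on ND, by a log2 fold change of 1.08 (SE 0.26, edgeR adjusted p = 0.00734). Against HFD it rose by a further 1.03 with semaglutide (SE 0.24, adjusted p = 0.00781), 1.29 with tirzepatide (SE 0.24, 0.000161) and 1.23 after the switch (SE 0.24, 0.00028). Against ND the log2 fold changes were 2.11 (SE 0.26, 5.77e-07) with semaglutide, 2.37 (SE 0.26, 5.02e-08) with tirzepatide and 2.31 (SE 0.26, 2.21e-07) after the switch. The diet switch did not bring Per2 to the level of mice kept on ND: all 8 switch libraries lay above all 8 ND libraries. Without the muscle-high libraries the semaglutide change against HFD was 0.86 and was not called (adjusted p = 0.0634).

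Per3, a PER protein less needed for the rhythm itself (chr4:151003652-151044665, − strand), followed Per2 with smaller steps. It ranged from 43.1 to 100.1 CPM (median 69.8) with semaglutide, from 64.6 to 106.7 (median 84.4) with tirzepatide and from 43.8 to 95.8 (median 69.1) after the switch. It ranged from 21.8 to 63.1 CPM (median 39.2) on HFD and from 13.7 to 36.7 (median 25.7) on ND. Tirzepatide libraries lay wholly above the HFD ones, and all treated libraries lay above all ND ones. Against HFD the log2 fold changes were 0.86 (SE 0.20, edgeR adjusted p = 0.00574) with semaglutide, 1.10 (SE 0.20, 8.00e-05) with tirzepatide and 0.77 (SE 0.20, 0.00386) after the switch. Against ND they were 1.49 (SE 0.20, adjusted p = 2.68e-06) with semaglutide, 1.73 (SE 0.20, 1.26e-07) with tirzepatide and 1.40 (SE 0.20, 1.44e-05) after the switch. On HFD against ND Per3 stood at 0.64 (SE 0.20, adjusted p = 0.0562), just short of the threshold, and DESeq2 called it (0.0363). Over the 9 alternative settings listed below, this change ran from 0.44 to 0.64 and its adjusted p up to 0.406.

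Per1, a PER protein gene that also responds quickly to hormones and stress (chr11:69095217-69109960, + strand), was called in none of the 10 comparisons, but 1 library decides this for the comparisons with ND. It ranged from 25.02 to 59.9 CPM (median 42.1) with semaglutide, from 32.5 to 58.9 (46.1) with tirzepatide, from 25.2 to 61.8 (36.5) after the switch, from 28.0 to 49.1 (35.5) on HFD and from 16.3 to 92.6 (24.5) on ND. The value of 92.6 CPM belongs to ND library 4, and the next highest ND library had 33.7 CPM. The log2 fold change against ND was 0.41 with semaglutide, 0.49 with tirzepatide, 0.28 after the switch and 0.19 on HFD. Without ND library 4 it was 0.84 with semaglutide (edgeR adjusted p = 0.00536), 0.92 with tirzepatide (0.00157), 0.71 after the switch (0.0132) and 0.63 on HFD (0.0386), each called.

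The CRY proteins inhibit ARNTL and CLOCK most directly. Their genes moved less than Per2 and Per3 in each comparison with HFD or ND. Cry1 (chr10:85131700-85185064, − strand) ranged from 3.03 to 9.98 CPM (median 7.72) with semaglutide, from 1.93 to 9.12 (5.57) with tirzepatide, from 2.53 to 9.94 (5.27) after the switch, from 4.21 to 11.5 (7.90) on HFD and from 5.28 to 18.3 (9.17) on ND. All ranges overlapped, with ND reaching highest. Cry1 was called lower than ND with tirzepatide, at -0.92 (SE 0.30, edgeR adjusted p = 0.0434), and after the switch, at -0.88 (SE 0.31, 0.0421). Both calls sat near the threshold and ended without the muscle-high libraries, at -1.04 (adjusted p = 0.234) with tirzepatide and -0.65 (0.277) after the switch, and without the B cell-high libraries (0.0540 with tirzepatide and 0.0507 after the switch). They also ended with no filter on low counts (0.0713 with tirzepatide and 0.0665 after the switch) and with only the compared groups in the fit (0.0609 with tirzepatide and 0.0659 after the switch), and that of the switch without diet-switch libraries 3, 4 and 7 (0.180). Each also ended on leaving out any 1 of 9 single libraries. For tirzepatide these were tirzepatide 1, 3, 6, 7 and 8 and ND 2, 5, 6 and 8 (adjusted p up to 0.106), and for the switch they were diet switch 2, 3, 5, 6 and 7 and the same ND libraries (up to 0.103). Its direction was thus that of Arntl and not that of Per2.

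Cry2 (chr2:92403646-92434043, − strand) ranged from 24.6 to 52.4 CPM (median 44.8) with semaglutide, from 36.8 to 61.4 (51.6) with tirzepatide, from 29.1 to 47.7 (38.3) after the switch, from 37.3 to 57.5 (44.0) on HFD and from 22.6 to 45.9 (41.5) on ND. Its ranges overlapped in every comparison and it was called in none. An exon of the non-coding gene D930015M05Rik overlaps Cry2 on the opposite strand by 149 bases.

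The receptor gene Nr1d2 (chr14:18204054-18239127, − strand), whose product represses Arntl, moved with Per2. It ranged from 29.6 to 60.4 CPM (median 42.8) with semaglutide, from 35.5 to 80.5 (median 52.2) with tirzepatide and from 23.3 to 73.5 (median 46.6) after the switch. It ranged from 16.5 to 36.1 CPM (median 22.8) on HFD and from 11.3 to 18.5 (median 16.4) on ND. Treated libraries lay wholly above ND ones and overlapped HFD ones, with 8 of 8 above the HFD median in each treated group. Against HFD the log2 fold changes were 0.85 (SE 0.19, edgeR adjusted p = 0.00408) with semaglutide, 1.16 (SE 0.19, 1.89e-05) with tirzepatide and 0.95 (SE 0.19, 0.000297) after the switch. Against ND they were 1.47 (SE 0.20, adjusted p = 2.23e-06) with semaglutide, 1.78 (SE 0.20, 5.02e-08) with tirzepatide and 1.57 (SE 0.20, 1.05e-06) after the switch. HFD against ND stood at 0.62 (SE 0.20, adjusted p = 0.0585), which DESeq2 called (0.0451). Over the 9 alternative settings this change ran from 0.52 to 0.63 and its adjusted p up to 0.272.

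Nr1d1 (chr11:98767932-98775333, − strand), the close relative of Nr1d2 with the same target sites, was called in none of the 10 comparisons and spread widely within groups. It ranged from 167 to 415 CPM (median 305) with semaglutide, from 226 to 763 (290.1) with tirzepatide, from 92.3 to 390 (192) after the switch, from 116 to 289 (229) on HFD and from 71.2 to 541 (189.9) on ND. All ranges overlapped. Within ND, libraries 1 to 4 lay at 222 to 541 CPM and libraries 5 to 8, the 4 highest in Arntl, at 71.2 to 158. The largest fold changes were those of tirzepatide, at 0.79 against HFD (SE 0.34, edgeR adjusted p = 0.0933) and 0.84 against ND (SE 0.34, 0.106), and the change against ND was 1.18 and called without ND library 1 (0.0202). With only the compared groups in the fit the change against HFD was called, at 0.79 (adjusted p = 0.0341). The 3′ end of Nr1d1 overlaps that of Thra, a thyroid hormone receptor gene on the other strand, by 263 exon bases. The libraries read transcript ends and the counting is not stated to use strand, so part of the Nr1d1 counts cannot be told apart from Thra counts. Thra itself was called by edgeR over the 5 groups (adjusted p = 0.0277) and in 1 of the 10 comparisons, tirzepatide against HFD, at 0.53 (SE 0.16, adjusted p = 0.0166). On HFD against ND it stood at -0.51 (SE 0.16, adjusted p = 0.0620), which DESeq2 called.

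**Figure D3:**
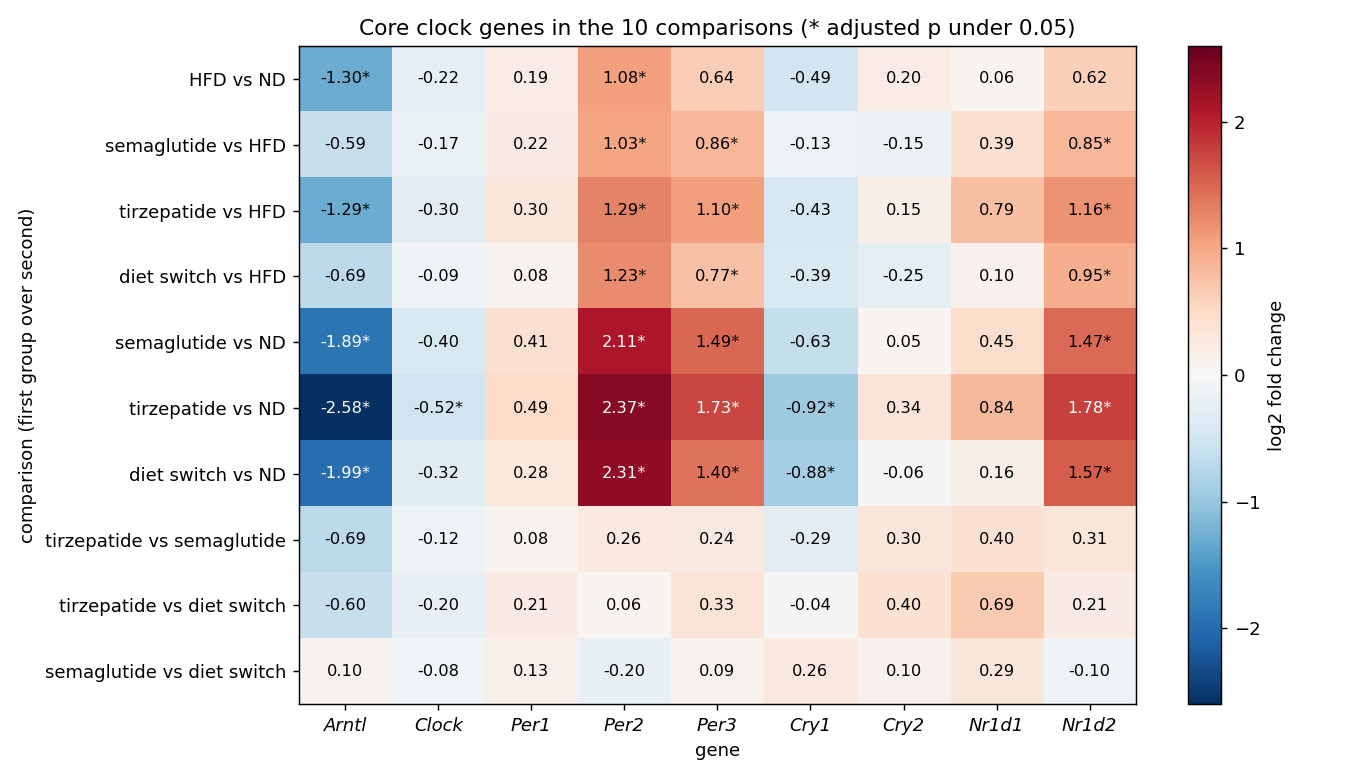
Log2 fold change (colour and number; the first group over the second) of the 9 tested core clock genes (columns) in the 10 comparisons (rows), with an asterisk where edgeR's adjusted p is under 0.05. Per2, Per3 and Nr1d2 are positive in all 7 comparisons with HFD or ND, Arntl is negative in all 7, and no gene is called among the 3 treatments.

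Counted over members, HFD against ND called 2 of 9, with Per2 higher and Arntl lower, where 4.50% of all genes were called (2.83% higher and 1.68% lower). Their 2 ranges did not overlap for 1 member, Per2, and for 1.52% of all genes. Against HFD, semaglutide called 3 members, all higher (4.15% of all genes, 1.52% higher and 2.63% lower), and no member had ranges apart, as 1.19% of all genes had. Tirzepatide called 4, with 3 higher and 1 lower (20.5% of all genes, 9.79% higher and 10.7% lower), and the ranges of Per3 were apart, as were those of 3.62% of all genes. The diet switch called 3, all higher (23.8% of all genes, 12.8% higher and 10.9% lower), with no member's ranges apart, against 2.54% of all genes. The called members that were higher were Per2, Per3 and Nr1d2 in each of these 3 comparisons, which share the HFD libraries.

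Against ND, semaglutide called 4 members, 3 higher and 1 lower, where 2.64% of all genes were called (0.905% higher and 1.73% lower). Tirzepatide called 6, with 3 higher and 3 lower (10.1% of all genes, 4.30% higher and 5.77% lower), and the diet switch 5, with 3 higher and 2 lower (14.8% of all genes, 7.97% higher and 6.82% lower). In each of these 3 comparisons the ranges of 4 members, Arntl, Per2, Per3 and Nr1d2, were apart, as were those of 0.778% of all genes in the semaglutide, 1.49% in the tirzepatide and 0.576% in the diet-switch comparison. The diet-switch and the ND mice were both on a normal diet at the end, so the 4 genes differed between groups on the same final diet. The median log2 fold change over the 9 members against ND was 0.41 in the semaglutide, 0.49 in the tirzepatide and 0.16 in the diet-switch comparison, where the median of all genes lay within 0.03 of 0. Against HFD it was 0.22 with semaglutide (0.05 over all genes), 0.30 with tirzepatide (0.03) and 0.08 after the switch (0.03). HFD against ND had 0.19, beside -0.04 over all genes. Since members moved in both directions, these medians say little of any one gene.

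The treatments were not separated from each other in the loop. In all 3 direct comparisons edgeR called 0 of 9 members, where 10% of all genes were called in tirzepatide against semaglutide, 13.3% in semaglutide against the diet switch and 0.399% in tirzepatide against the diet switch, and DESeq2 also called 0 members. These shares of all genes depend on the libraries: without the muscle-high libraries 146 genes in place of 1584 were called in tirzepatide against semaglutide and 1 in place of 63 in tirzepatide against the switch. That setting left out 5 of 8 tirzepatide, 2 of 8 semaglutide and 3 of 8 diet-switch libraries. An effect of muscle and an effect of fewer libraries cannot be told apart there. At an unadjusted p under 0.05 there were 0 members in both comparisons with semaglutide and 2 in tirzepatide against the switch. Those 2 were Cry2, higher with tirzepatide than after the switch by 0.40 (95% interval 0.09 to 0.71, edgeR adjusted p = 0.243), and Nr1d1, by 0.69 (0.00 to 1.37, 0.383). For Per2, tirzepatide against semaglutide was 0.26 (-0.21 to 0.74), semaglutide against the switch -0.20 (-0.68 to 0.27) and tirzepatide against the switch 0.06 (-0.41 to 0.53). These intervals still allow differences of up to 0.74 in Per2 and do not show that the treatments act alike.

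Libraries of one group also differed from each other, and pairs of members moved together within groups. After the group means were taken from log2 CPM, 6 of the 36 pairs of tested members were correlated over the 40 libraries, by permutation within groups and adjusted over the 36 pairs. The strongest was Per2 with Nr1d2, at r = 0.69 (Spearman 0.67, permutation p = 1e-05, the smallest the permutations can give, adjusted p = 0.00036), and it was 0.66 without the 2 libraries farthest in Per2. Within single groups of 8 this r was 0.80 with semaglutide, 0.90 with tirzepatide, 0.81 after the switch, 0.39 on HFD and 0.36 on ND. Per3 followed Nr1d1 at 0.56 (Spearman 0.54, adjusted permutation p = 0.00576), and Cry2 followed Nr1d1 at 0.51 (0.50, 0.00603). Per3 followed Nr1d2 at 0.47 (0.46, 0.0198).

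The 2 negative pairs that were called both held the activator Arntl. Its pairs with Per2 (r = -0.295, adjusted permutation p = 0.280) and Nr1d2 (-0.26, 0.280) were not called. Arntl ran against Per3 at r = -0.50 (Spearman -0.47, adjusted permutation p = 0.00603) and against Nr1d1 at -0.44 (-0.46, 0.0316), and without the 2 libraries farthest in Arntl these were -0.52 and -0.51. Both pairs were negative in all 5 groups, with r from -0.75 to -0.08 for Per3 and from -0.76 to -0.16 for Nr1d1. The next pairs did not pass: Arntl with Cry2 at -0.35 (adjusted permutation p = 0.186), Clock with Per1 at -0.35 (0.117), Arntl with Per1 at -0.34 (0.117) and Per1 with Nr1d1 at 0.35 (0.261). The 2 receptor genes did not follow one another, with r = 0.03 for Nr1d1 and Nr1d2 (adjusted permutation p = 0.883). Of the 6 pairs, only Per2 with Nr1d2 passed both without the libraries high in muscle markers (r = 0.74, adjusted permutation p = 0.00504) and without the 4 high in B cell markers (0.67, 0.00252). Without the B cell-high libraries Arntl with Per3 stood at -0.42 (0.0543), Arntl with Nr1d1 at -0.35 (0.217), Cry2 with Nr1d1 at 0.37 (0.170) and Per3 with Nr1d2 at 0.40 (0.142), none of which passed, while Per3 with Nr1d1 did (0.0239) and Clock with Per3 was gained at -0.47 (0.0312). Without the muscle-high libraries Per3 with Nr1d1 (0.52, 0.0836) and Per3 with Nr1d2 (0.33, 0.394) did not pass, while Arntl with Cry2 (-0.58, 0.0267) and Clock with Per1 (-0.55, 0.0267) were gained.

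**Figure D4:**
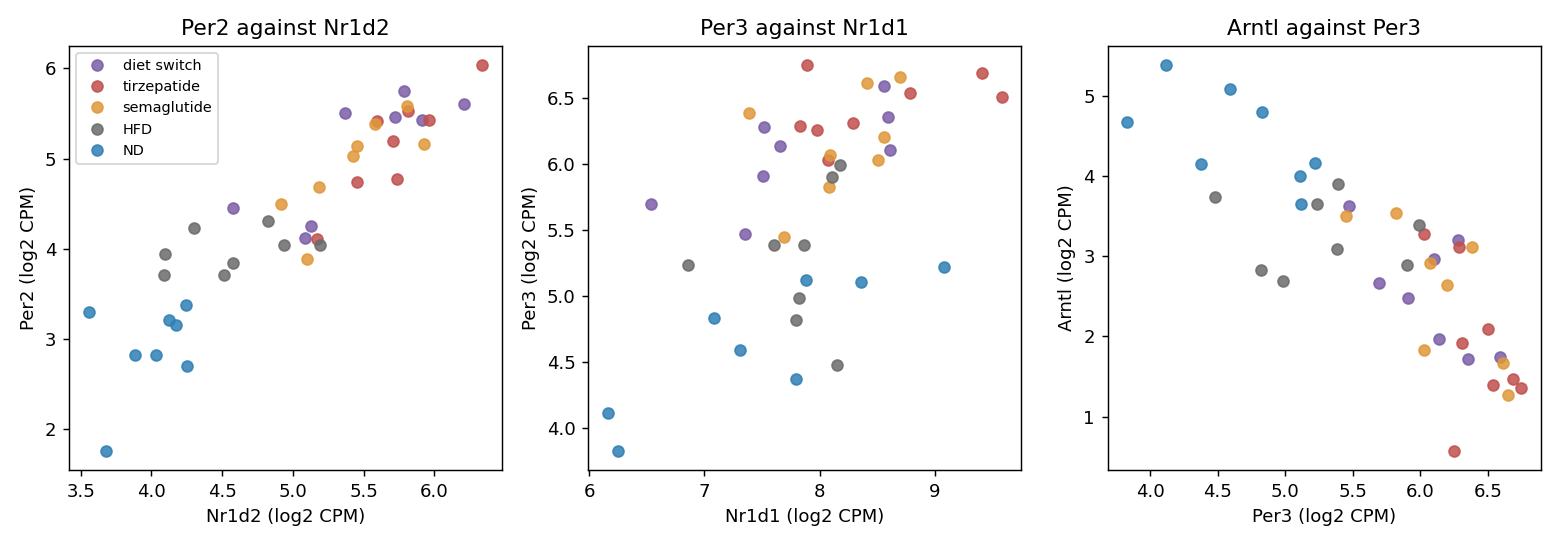
Log2 CPM of 3 pairs of core clock genes, each point 1 of 40 libraries coloured by group. Per2 rises with Nr1d2 and Per3 with Nr1d1, while Arntl falls as Per3 rises; with group means removed r is 0.69, 0.56 and -0.50.

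By the same measure, over 40 libraries with group means removed and as a description only, the genes outside the list most like Arntl were Nav2 (r = 0.66), Gm6807 (0.62), Gm16523 (0.61), Gm24949 (0.60) and Trim7 (0.59). Those most opposite to Arntl were Vegfd (-0.64), Kank3 (-0.63), Hs1bp3 (-0.61), Dock6 (-0.60) and Plekhh3 (-0.57). Per2 was most like Sparcl1 (0.76), Cpeb1 (0.74), Bace1 (0.74), Chst1 (0.72) and Apbb2 (0.70). Per1 was most like Por (0.67), Rhob (0.65), Coprs (0.64), Tdg (0.63) and Tsc22d3 (0.61), the last a glucocorticoid-induced gene. ND library 4, which stood alone in Per1, also had the highest ND mean over 5 glucocorticoid response genes, 6.34 log2 CPM. The r values of Per1 were not computed without this library. Among the 5 genes most like Nr1d1 were Palm (0.86), Ptpa (0.83), Itgb5 (0.83) and Tex264 (0.82).

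The clock's output factors were counted beside the loop. Of 6 listed, all tested, the PAR domain factors Dbp, Tef and Hlf activate D-boxes and Nfil3 represses them, Nampt makes an NAD precursor and Wee1 is a cell cycle kinase. HFD against ND called 0 of them (edgeR, and 0 with DESeq2; 1 at an unadjusted p under 0.05). Against HFD, semaglutide called Hlf at 1.06 (SE 0.19) and Nfil3 at -1.93 (SE 0.48). Tirzepatide called Hlf at 1.21 (SE 0.19), Tef at 1.20 (SE 0.19), Nfil3 at -2.44 (SE 0.50) and Nampt at 0.71 (SE 0.25), and the diet switch Nampt at 1.00 (SE 0.25) and Tef at 0.70 (SE 0.19). The share of all genes called against HFD was 4.15% for semaglutide, 20.5% for tirzepatide and 23.8% for the switch. Hlf had 27.2 to 65.2 CPM with semaglutide and 37.3 to 71.0 with tirzepatide, against 17.8 to 27.8 on HFD. Nfil3 had few counts, from 0 to 64 per library over the 40 libraries. Hlf was thus higher and Nfil3 lower than on HFD with both drugs, and tirzepatide libraries lay wholly above the HFD range of Hlf.

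Against ND, 4 output factors were higher and 1 lower with semaglutide, and 3 higher and 1 lower with tirzepatide. After the switch 5 were higher and 1 lower. The share of all genes called there was 2.64% for semaglutide, 10.1% for tirzepatide and 14.8% for the switch. Among the 6 factors Nfil3 was the lower gene each time, at -2.51 (SE 0.48) with semaglutide, -3.01 (SE 0.50) with tirzepatide and -1.36 (SE 0.45) after the switch. Its counts were low, with 558 in all. Dbp, a textbook target of the loop, was higher than ND with semaglutide, at 2.03 (SE 0.51), and after the switch, at 1.55 (SE 0.51). Its levels were low, at 1.80 to 12.03 CPM with semaglutide, 1.28 to 7.62 after the switch and 0 to 2.57 on ND.

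Of 14 genes that tune the loop 13 were tested, Fbxl21 being below the filter. Ciart, a repressor of ARNTL and CLOCK, was higher in each treated group against HFD, at 1.37 (SE 0.39) with semaglutide, 1.30 (SE 0.39) with tirzepatide and 1.07 (SE 0.39) after the switch, and against ND, at 2.10 (SE 0.41) with semaglutide, 2.02 (SE 0.41) with tirzepatide and 1.80 (SE 0.41) after the switch. In HFD against ND 0 of the 13 passed with edgeR and 0 with DESeq2 (2 at an unadjusted p under 0.05). Among the other calls against HFD were Rorb at -0.88 (SE 0.25) and Csnk1e at 0.34 (SE 0.13) with tirzepatide, and Bhlhe41 at 0.72 (SE 0.22) and Csnk1d at -0.52 (SE 0.16) after the switch. Bhlhe41, another repressor of the activators, was also higher than ND with semaglutide, at 0.80 (SE 0.22), and after the switch, at 0.97 (SE 0.22). Rora, Bhlhe40, Usp2 and Timeless were called in no comparison with HFD or ND. Against HFD, semaglutide called 1 of the 13 (4.15% of all genes), tirzepatide 3 (20.5%) and the switch 4 (23.8%). Against ND, semaglutide called 2 (2.64% of all genes), tirzepatide 1 (10.1%) and the switch 2 (14.8%).

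Genes of acute signals that also reach Per1 and Per2 were counted beside them. Of 5 glucocorticoid response genes, HFD against ND called Sgk1 at 0.78 (SE 0.24), semaglutide against HFD called 0 (edgeR, and 0 with DESeq2; 2 at an unadjusted p under 0.05), tirzepatide against HFD called Zbtb16 at 1.46 (SE 0.32), and the switch against HFD called Zbtb16 at 2.20 (SE 0.33) and Klf9 at 0.66 (SE 0.17). Against ND, Klf9 was higher with semaglutide at 0.59, with tirzepatide at 0.57 and after the switch at 0.81 (SE 0.17 each). Zbtb16 was higher than ND with tirzepatide at 0.99 (SE 0.32) and after the switch at 1.74 (SE 0.32), and Sgk1 after the switch at 1.09 (SE 0.24). Of 8 immediate early genes, Atf3 was higher than ND on HFD (1.28, SE 0.39), with tirzepatide (1.22, SE 0.39) and after the switch (1.27, SE 0.39), and Junb was lower than HFD with tirzepatide (-0.97, SE 0.23). None of these 8, which include Fos and Egr1, was called in semaglutide against HFD or ND or in the diet switch against HFD, by edgeR or DESeq2, with 2 at an unadjusted p under 0.05 in semaglutide against HFD, 0 in semaglutide against ND and 2 in the switch against HFD. Beside these calls, the share of all genes called was 4.50% in HFD against ND. Against HFD it was 4.15% for semaglutide, 20.5% for tirzepatide and 23.8% for the switch. Against ND it was 2.64% for semaglutide, 10.1% for tirzepatide and 14.8% for the switch. The part of these acute signal genes in the levels of Per1 and Per2 was not tested.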

How the data were processed

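RNA of mouse sWAT was profiled in 40 libraries. Per the labels' protocols, Nucleozol was used for extraction and a Lexogen QuantSeq kit, which reads transcript ends, for library preparation, followed by Illumina sequencing. Reads were mapped to mm10, per the submitters' processing notes. The sources used here do not give the aligner, the counting program, its strand setting or the gene annotation. The counts used here are raw counts per gene symbol, as deposited by the authors. A second deposited table of normalized signal holds the same counts divided by 1 factor per library (largest relative spread 6.6e-10), so it adds no measurement, and 16 of its columns match no sample of the series and were not used.

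Counts were filtered with filterByExpr (15807 genes kept, with 99.39% of counts), scaled by TMM and fitted with the robust quasi-likelihood model of edgeR 4.0.16 in R 4.3.3, with all 40 libraries and 5 group means in 1 fit. The 10 comparisons of 2 groups and 1 test of all 5 were adjusted by Benjamini-Hochberg over all genes tested, and the SE follows from the F statistic. Log2 CPM used a prior count of 2. Correlations used log2 CPM with group means removed and 100000 permutations of libraries within groups, two-sided, over 36 pairs, since 9 members passed the filter. For gene likeness, the 5 genes with the highest r to Arntl, Nr1d1, Per1 and Per2 and the 5 with the lowest r to Arntl were named. Besides the 10 members and Thra, up to 4 called genes with the smallest adjusted p were named from each list and comparison. Dbp with semaglutide is beyond these 4, and it and Rora, Bhlhe40, Usp2, Timeless, Fos and Egr1 were named after their values were seen. A few genes that these rules select are not reported here. Coordinates are from GENCODE M21. The procedure was checked on simulated counts.

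The members, gene lists, tests and alternatives were chosen with earlier results of these data known. As alternatives, DESeq2 1.42.0 replaced edgeR or gave only the size factors, genes were left unfiltered or needed 10 counts in 8 libraries, and the fit held only the groups compared or took the replicate number as a block. Others left out each library, the libraries with muscle or B cell markers above 5 log2 CPM, or diet-switch libraries 3, 4 and 7. No 2 libraries of a group were copies (smallest chi-square per degree of freedom 3.99).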

Additional observations from a re-analysis of the deposited data

Results flagged for a closer look

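In 45 sets of 8 libraries (9 tested members in 5 groups), 4 had a library whose gap to the nearest other library was large for the range of its group, where chance gives about 1 in 20. Per1 stood at 92.6 CPM in ND library 4, far above the other ND libraries. Per2 stood at 2.86 CPM and Cry2 at 22.6 CPM in ND library 5, each far below the others, and this is the ND library with a B cell marker mean of 7.28 log2 CPM and the highest Arntl level, 41.2 CPM. Nr1d1 stood at 116 CPM in HFD library 3, far below the other HFD libraries. The part of B cells in the values of ND library 5 was not tested.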

How the results depend on the processing

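Each of the 90 log2 fold changes of a member was recomputed under 9 alternatives and without each of the 40 libraries. A sign changed in 18 values under the alternatives and in 28 with a library left out, all of them of fold changes that were called neither before nor after. Of 3600 values with a library left out, 28 lost and 15 gained a call. In HFD against ND the number of members called was 2, but 1 without muscle-high libraries and 4 with DESeq2, which called 5 over the 5 groups (Cry1, 0.0367) in place of 4. Leaving out 1 library gave 1 to 4 members in HFD against ND (1 without ND 5, 4 without ND 4), 4 to 5 for semaglutide, 4 to 7 for tirzepatide and 4 to 6 for the switch against ND, 4 to 6 over the 5 groups, and against HFD the same 3 for semaglutide, 4 for tirzepatide and 3 for the switch. The direct comparisons stayed at 0. Without B cell-high libraries 3 pairs were correlated in place of 6, of which 2 were among the 6; the cause was not tested.

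Same-numbered libraries' deviations had median correlations of -0.05 to 0.12, highest in tirzepatide against the switch (other numbers -0.03). At most 3 of 8 were most like their own number. Shared timing was not tested. With the replicate number as a block 3 members were called in HFD against ND (Per3 at 0.63, edgeR adjusted p = 0.0483), 7 in tirzepatide against ND (Nr1d1 at 0.91, 0.0464) and 5 over the 5 groups (Clock, 0.0419), and other counts of members and the 6 pairs did not change.

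Counts over all genes moved more than those of members. Without muscle-high libraries they were 354 (in place of 712) in HFD against ND, 907 (3246) in tirzepatide against HFD, 2324 (3759) in the switch against HFD, and against ND 148 (417) for semaglutide, 134 (1591) for tirzepatide and 848 (2338) for the switch, and 2671 (5297) over the 5 groups. Without diet-switch libraries 3, 4 and 7 the switch had 1148 against HFD and 112 against ND. In tirzepatide against the switch (63 genes) the count was 1 without muscle-high libraries or with only the compared groups, 99 with the replicate block, 123 without B cell-high libraries, 347 without diet-switch libraries 3, 4 and 7, 231 with DESeq2, and with 1 library left out 35 (tirzepatide 3) to 357 (tirzepatide 8). In tirzepatide against semaglutide (1584) it was 146 without muscle-high and 959 without B cell-high libraries, and in semaglutide against the switch (2101) 1242 without muscle-high, 1230 without B cell-high, 276 without those diet-switch libraries and 1213 with only the compared groups. Depth limits Npas2, with 133 counts in all.

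The sign changes were all in log2 fold changes without a call, and the one that moved furthest was Arntl in semaglutide against the switch, at -0.53 without B cell-high libraries in place of 0.10. Without muscle-high libraries Nr1d1 stood at -0.24 on HFD against ND and -0.094 after the switch against ND, Clock at 0.046 in tirzepatide against semaglutide, Per3 at -0.018 in semaglutide against the switch and Per2 at -0.019 in tirzepatide against the switch. Without B cell-high libraries Nr1d1 stood at -0.070 on HFD against ND, Cry2 at 0.090 in semaglutide against HFD, Per1 at -0.014 in tirzepatide against semaglutide, and, in semaglutide against the switch, Arntl at -0.53 and Nr1d2 at 0.023. Without diet-switch libraries 3, 4 and 7 the switch had Per1 at -0.14 against HFD and Cry2 at 0.0013 against ND, semaglutide against the switch had Arntl at -0.065, Clock at 0.022, Per2 at 0.14, Per3 at -0.0099 and Nr1d2 at 0.093, and tirzepatide against the switch had Cry1 at 0.039. With 1 library left out, Cry2 in semaglutide against ND ranged from -0.038 to 0.13, Nr1d1 on HFD against ND from -0.078 to 0.39, and, after the switch against HFD, Nr1d1 from -0.023 to 0.23 and Per1 from -0.046 to 0.16. Likewise Per1 in tirzepatide against semaglutide ranged from -0.0061 to 0.16, Arntl in semaglutide against the switch from -0.068 to 0.30, Clock from -0.15 to 0.012 and Nr1d2 from -0.20 to 0.024, and in tirzepatide against the switch Per2 from -0.10 to 0.16 and Cry1 from -0.17 to 0.11. Among pairs that were not called, r had the other sign in some groups alone: Per1 with Nr1d1 at -0.25 and Clock with Per1 at 0.69 after the switch, Arntl with Cry2 at 0.46 with tirzepatide and 0.025 on HFD, and Arntl with Per1 at 0.58 on HFD. Arntl with Cry2 was 0.018 without B cell-high libraries. The cause was not tested.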
